A study of Drosophila melanogaster with 24 samples.

Results

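The early response of the Drosophila melanogaster testis to warmth is described here as the difference between 4 testis libraries made after 12 h in the warmth (30 °C by the extraction notes, 29 °C by the treatment notes) and 4 made at 0 h, before any shift. These are 8 of the 24 RNA-seq libraries of the series, taken by their labels, with 2 libraries for each genotype and time, each from a pool of flies. Nothing in the labels says that the 2 replicates came from separate crosses, so p-values measure the spread between these libraries, which may be technical. TraF males are XY flies of a y1 w* stock that carry UAS-Tra.F, the female form of the splicing factor tra, together with tubP-GAL4 and tubP-GAL80ts. Control males carry tubP-GAL4 and tubP-GAL80ts without the UAS transgene. All flies were raised at 18 °C and were 5 days old when they were moved, and the 0 h flies had stayed at 18 °C. The tubP driver is active in nearly every cell type, and GAL80ts holds GAL4 back in the cold, so warmth also switches the transgene on in TraF testes. Genotype entered the model as a covariate, which takes out the difference between genotypes that is common to both times. The tested change is a single change fitted to both genotypes together. A gene that changed in TraF testes alone can pass this test too. No library kept 12 h longer at 18 °C was used, so warmth, the added 12 h and any difference in time of day cannot be told apart.

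In flies, as in other animals, warmth can activate heat shock factor, which drives genes for chaperones of several families. The Hsp70 proteins refold or clear damaged proteins, Hsp83 is the fly Hsp90, and the small heat shock proteins hold unfolded proteins in a soluble state. Many chaperone genes are also transcribed in gonads at normal temperature. A fly testis is mostly germline, with spermatocytes that transcribe a large testis-specific programme before meiosis, surrounded by somatic cyst cells and a muscle sheath.

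The gene that the transgene encodes was checked first. Transcripts of tra (FBgn0003741, arm 3L) stood at 241 and 217 CPM in TraF and 5.54 and 7.36 CPM in Control testes at 12 h, against 19.5 and 23 CPM in TraF and 9.45 and 10.9 CPM in Control testes at 0 h. Both TraF libraries at 12 h thus lay far above the rest, as their label says, and TraF testes lay above Control testes at 0 h too. Total gene counts ran from 16136939 to 29474719 reads over the 8 libraries. Control 12 h replicate 1 stood apart: the 23 accessory gland genes, which encode seminal fluid proteins of a neighbouring gland, summed to 6140 CPM in it, against 12.3 to 15.4 CPM in the other 12 h libraries and 7.17 to 14.5 CPM at 0 h. Levels are given as CPM, counts relative to the library's total, with totals scaled by the trimmed mean of M-values (TMM). Testis identity held in all libraries. The post-meiotic cup and comet genes, which late spermatids transcribe, summed to 9880 to 10700 CPM at 12 h and to 8870 to 11700 CPM at 0 h. In whole testes, fewer cells of a type and less RNA per cell cannot be told apart.

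Warmth for 12 h was followed by a change in 391 genes, of which 151 changed at least 2-fold. Of 11895 genes tested, 181 were higher and 210 were lower at 12 h at an adjusted p under 0.05 (edgeR quasi-likelihood test with Benjamini-Hochberg adjustment), which is 1.52% and 1.77% of the genes tested and 3.29% together. The 2-fold changes were 99 of the higher and 52 of the lower genes, and 26 and 7 changed at least 4-fold. An unadjusted p under 0.05 by edgeR was reached by 2129 of the 11895 genes, and DESeq2 called 710 genes. The counts of these kinds given below for gene lists stand against those numbers. The median log2 fold change was 1.07 among the higher and -0.75 among the lower genes, with 0.01 over all genes tested. The genes that rose had a median level of 8.2 CPM at 12 h and 3.81 CPM at 0 h. In 166 of the 181 higher and 193 of the 210 lower genes, the 4 libraries at 12 h did not overlap the 4 at 0 h, a separation found in 10.4% of all genes tested. The same libraries made the calls, so this separation is a description and adds no support to them.

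The number of calls depended on single libraries. With 1 TraF 12 h library left out it was 103 (replicate 1) or 143 (replicate 2). With 1 TraF 0 h library left out it was 157 or 147, and with 1 Control 0 h library left out 155 or 185. Leaving out Control 12 h replicate 1, with its accessory gland transcripts, gave 570 calls (235 higher, 335 lower), among them 356 of the 391, and leaving out Control 12 h replicate 2 gave 578 (329 higher, 249 lower). There were 93 genes, 50 higher and 43 lower, that were called without each of the 8 libraries in turn. The plot of all genes by fold change and p shows where the leading ones lie.

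**Figure D1:**
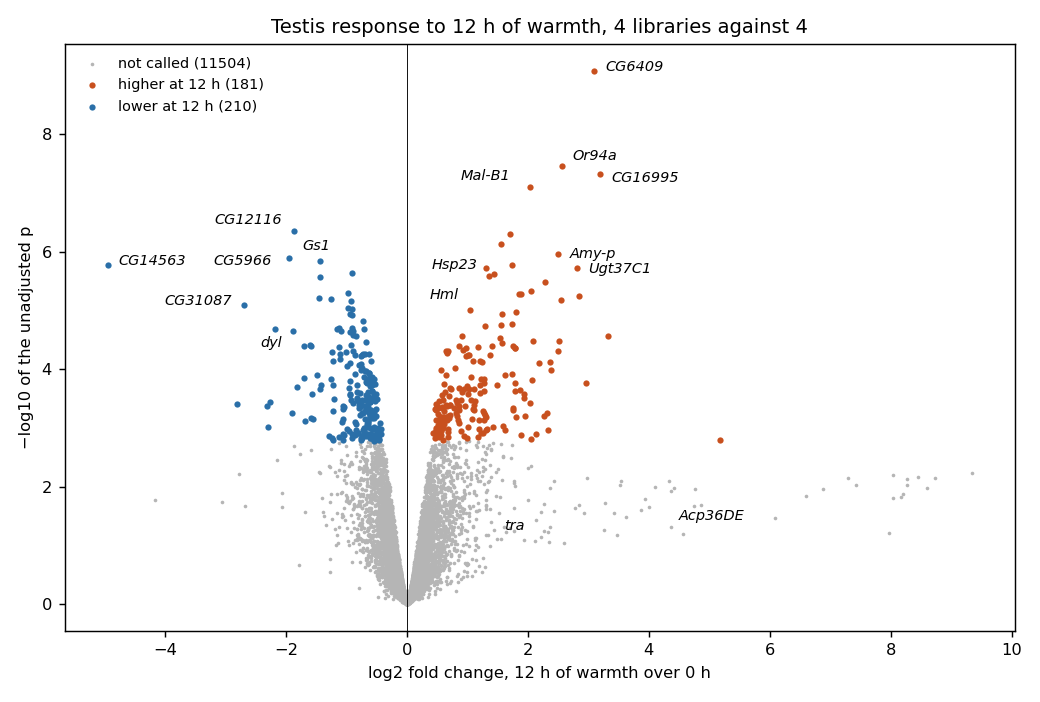
Each point is 1 of 11895 genes; the x axis is the log2 fold change of 12 h over 0 h and the y axis is −log10 of the unadjusted p from edgeR. The 181 genes called higher (orange) reach larger fold changes than the 210 called lower (blue), CG6409 has the lowest p, and accessory gland genes such as Acp36DE lie far to the right without being called (grey).

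The rise with the lowest p belonged to CG6409 (FBgn0036106, arm 3L). It stood at 712 and 568 CPM in TraF and 590.2 and 406 CPM in Control testes at 12 h, against 77.4 and 72.8 CPM in TraF and 57.5 and 58.6 CPM in Control testes at 0 h. Every 12 h library was thus several times above every 0 h library, and the log2 fold change was 3.10 (SE 0.148, edgeR adjusted p = 9.75e-06). CG16995 (FBgn0031412, arm 2L) rose by a similar factor from a lower base, with 26.6 and 20.0 CPM in TraF and 32.1 and 20.5 CPM in Control testes at 12 h, against 2.9 and 3.05 CPM in TraF and 1.7 and 3.17 CPM in Control testes at 0 h. Its log2 fold change was 3.20 (SE 0.229, edgeR adjusted p = 0.00019). Exons of CG16995 overlap those of CG9967 on the other strand, and the strand setting of the counting is not given in the sources used here. Or94a (FBgn0039033, arm 3R), an odorant receptor gene, was among the most even between libraries. Its levels were 5.48 and 6.06 CPM (TraF) and 5.3 and 5.53 CPM (Control) at 12 h, and 0.828 and 0.832 CPM (TraF) and 1.08 and 1.02 CPM (Control) at 0 h, a log2 fold change of 2.56 (SE 0.177, edgeR adjusted p = 0.00019). All 3 of these genes were also called without each of the 8 libraries.

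Among the other large rises were genes of the cuticle, of small-molecule conjugation and of unknown role. Each had 12 h above 0 h in both genotypes, which the naming rule required. Ugt37C1, which encodes a UDP-glycosyltransferase, ranged over 1.25 to 1.66 CPM at 12 h and 0.155 to 0.317 CPM at 0 h (log2 fold change 2.82, SE 0.296, edgeR adjusted p = 0.0016). Cpr100A, a cuticle protein gene, ranged over 3.95 to 8.92 CPM at 12 h and 0.277 to 1.48 CPM at 0 h (log2 fold change 2.85, SE 0.337, edgeR adjusted p = 0.00284). Its highest 12 h value was in Control 12 h replicate 1. Cpr62Bc, another cuticle protein gene, ranged over 0.706 to 2.25 CPM at 12 h and 0.0387 to 0.317 CPM at 0 h, with its highest value in Control 12 h replicate 2. Its log2 fold change was 2.96 (SE 0.519, edgeR adjusted p = 0.0156), and the adjusted p reached 0.055 without TraF 0 h replicate 2 and was also over 0.05 without TraF 12 h replicate 1. CG14892, whose exons overlap CG10345 on the other strand, changed by 2.54 (SE 0.305, edgeR adjusted p = 0.00288), and CG3690 by 2.38 (SE 0.391, edgeR adjusted p = 0.0117) on the log2 scale. The adjusted p of CG3690 was 0.0511 without TraF 12 h replicate 1. Transcription factor genes of the embryo were also among the rises, at low levels. The pair-rule gene ftz ranged over 1.64 to 2.07 CPM at 12 h and 0.282 to 0.786 CPM at 0 h (log2 fold change 1.79, SE 0.266, edgeR adjusted p = 0.0075), and HLH54F, which acts in the visceral mesoderm of embryos, over 0.751 to 1.73 CPM at 12 h and 0.277 to 0.426 CPM at 0 h. The call of HLH54F (log2 fold change 1.78, SE 0.325, edgeR adjusted p = 0.018) held without Control 12 h replicate 1 or 2 and was lost without each of the other 6 libraries, with an adjusted p of at most 0.0726. The remaining rises by the naming rule were Pxd, a peroxidase gene (0.939 to 1.83 CPM at 12 h and 0.176 to 0.601 CPM at 0 h, log2 fold change 1.94), and mey, which encodes a zona pellucida domain protein (log2 fold change 1.93). Both lost their call without at least 4 of the libraries.

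The deepest fall was that of CG14563 (FBgn0037139, arm 3L), which nearly vanished. It had 5 reads in the 4 libraries at 12 h, against 169 reads in the 4 at 0 h. Its levels were 0 and 0.0782 CPM (TraF) and 0.0939 and 0.0469 CPM (Control) at 12 h, and 1.48 and 2.68 CPM (TraF) and 1.16 and 1.97 CPM (Control) at 0 h. The ratio of pooled counts, 0 h over 12 h, was 34.2 (95% interval 14.4 to 107, for counting error only). The fitted log2 fold change was -4.95 (SE 0.512, edgeR adjusted p = 0.0016), and at so few reads it depends on edgeR's prior count. CG5966 (FBgn0029831, arm X), which encodes a predicted lipase, was the most abundant of the large falls. It stood at 8.59 and 8.92 CPM in TraF and 11.7 and 8.34 CPM in Control testes at 12 h, against 48.8 and 32 CPM in TraF and 38.1 and 26.4 CPM in Control testes at 0 h. The highest 12 h level, 11.7 CPM, lay well below the lowest 0 h level, 26.4 CPM, and the log2 fold change was -1.94 (SE 0.195, edgeR adjusted p = 0.0016). CG12116 fell in both genotypes from unequal bases, with 1.08 and 0.978 CPM in TraF and 2.63 and 2.25 CPM in Control testes at 12 h, against 4.62 and 4.16 CPM in TraF and 8.52 and 7.37 CPM in Control testes at 0 h. Its log2 fold change was -1.87 (SE 0.169, edgeR adjusted p = 0.000997), and Control testes lay above TraF testes at both times.

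Several named falls belong to metabolism, transport or the cell surface. Gs1 (FBgn0001142, arm 2L), the mitochondrial glutamine synthetase, stood at 5.11 and 5.59 CPM in TraF and 7.56 and 6 CPM in Control testes at 12 h, against 18.9 and 14.6 CPM in TraF and 15.4 and 16.5 CPM in Control testes at 0 h. The log2 fold change of Gs1 was -1.43 (SE 0.146, edgeR adjusted p = 0.0016). dyl, which encodes a zona pellucida domain protein of the apical cell surface, ranged over 1.04 to 2.16 CPM at 12 h and 3.91 to 7.01 CPM at 0 h, and its log2 fold change was -1.89 (SE 0.26, edgeR adjusted p = 0.00549). Zip42C.1, a zinc transporter gene, ranged over 0.789 to 1.45 CPM at 12 h and 3.07 to 4.69 CPM at 0 h (log2 fold change -1.60, SE 0.234, edgeR adjusted p = 0.00739). In none of these genes did a 12 h library reach a 0 h library, and each was called without each of the 8 libraries, as were CG31087 (-2.70), CG17283 (-2.18) and CG31259 (-1.70). The other falls by the rule were less stable. They were Cpr66D (-1.82) and Cpr76Bb (-1.29), cuticle protein genes, CG34045 (-1.71), lncRNA:CR43930 (-1.91), which overlaps lncRNA:CR45733 on the other strand, Osi15 (-1.58), the receptor tyrosine kinase gene Cad96Ca (-1.44) and SmydA-6 (-1.42). Their highest adjusted p without 1 library ran from 0.0519 without TraF 0 h replicate 1 to 0.131 without TraF 0 h replicate 2.

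**Figure D2:**
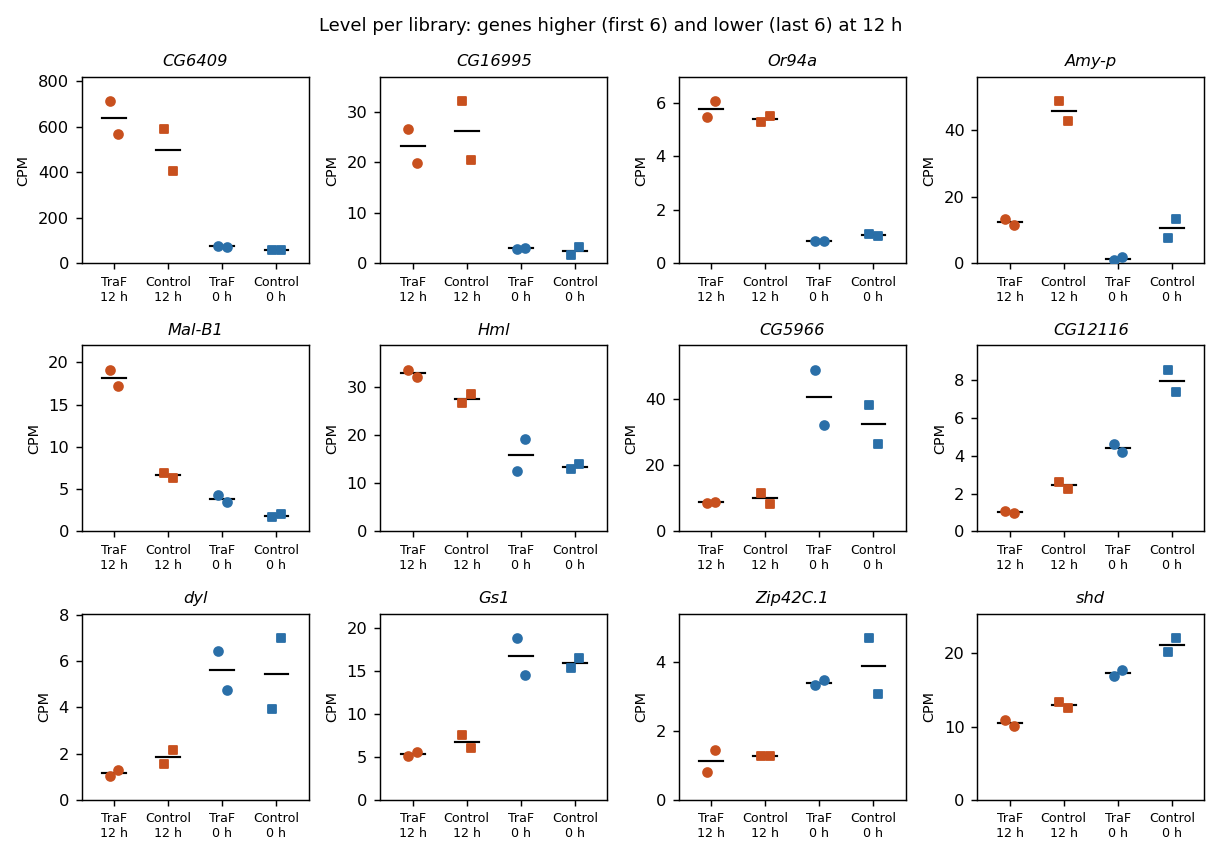
Level in CPM of 12 genes in each of the 8 libraries, by genotype (circles TraF, squares Control) and time, with bars at the mean of 2 libraries. The 12 h libraries (orange) lie above the 0 h libraries (blue) within each genotype for the first 6 genes and below them for the last 6. The naming rule required this of all but Hml and shd. Amy-p, Mal-B1 and CG12116 also differ between genotypes.

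Among the heat-inducible chaperone genes, those called higher were the small heat shock protein genes Hsp23, Hsp26, Hsp67Bc and l(2)efl, and Hsp70Bb. The call of Hsp70Bb rested on TraF testes, as its Control libraries overlapped between times. Hsp68 and Hsp83 did not pass. Of the 18 heat-inducible chaperone genes listed, 13 passed the filter on low counts, and of these 5 rose and 1 fell, against 1.52% and 1.77% of all genes tested. Their median log2 fold change was 0.48, against 0.01 over all genes. Without Control 12 h replicate 1 the counts were again 5 and 1 and the median 0.54. The list summed to 1960 to 2240 CPM at 12 h and to 1510 to 1670 CPM at 0 h, with no overlap between the times.

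Hsp23 (FBgn0001224, arm 3L) led this group. It stood at 436 and 390.4 CPM in TraF and 539.7 and 344 CPM in Control testes at 12 h, against 166 and 179 CPM in TraF and 167 and 156 CPM in Control testes at 0 h. Its log2 fold change was 1.36 (SE 0.147, edgeR adjusted p = 0.00179), and it was called without each of the 8 libraries. Hsp26, the most abundant of the small ones, stood at 572 and 535 CPM in TraF and 673 and 584 CPM in Control testes at 12 h, against 367 and 376 CPM in TraF and 443 and 394 CPM in Control testes at 0 h. This was a smaller change, 0.58 (SE 0.108, edgeR adjusted p = 0.0191), whose adjusted p reached 0.0771 without TraF 12 h replicate 1 and was over 0.05 without each of 5 libraries (TraF 12 h replicates 1 and 2, TraF 0 h replicate 2, Control 0 h replicates 1 and 2). Levels of l(2)efl, also a small heat shock protein gene, were 26.5 and 28.2 CPM (TraF) and 34.6 and 37.3 CPM (Control) at 12 h, and 11.5 and 20.3 CPM (TraF) and 14.6 and 18.8 CPM (Control) at 0 h (log2 fold change 0.94, SE 0.17, edgeR adjusted p = 0.0172). Its exons overlap St3 on the other strand, and the adjusted p reached 0.0638 without Control 0 h replicate 1, and was over 0.05 also without TraF 12 h replicates 1 and 2. Hsp67Bc rose at a low level, with 3.53 to 4.27 CPM at 12 h and 0.891 to 2.36 CPM at 0 h and a log2 fold change of 1.28 (SE 0.261, edgeR adjusted p = 0.0268). Its adjusted p by edgeR was 0.0864 without Control 0 h replicate 2, and it was over 0.05 without 5 of the 8 libraries.

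Hsp27 and Hsp67Ba, from the same family, did not follow. Hsp27 stood at 223 and 222 CPM in TraF and 197 and 259 CPM in Control testes at 12 h, against 232 and 219 CPM in TraF and 215 and 216 CPM in Control testes at 0 h. The times overlapped, and its log2 fold change was 0.03 (SE 0.112, edgeR adjusted p = 0.951), with the sign turning to -0.051 without Control 12 h replicate 2 and to -0.027 in TraF testes alone. Hsp67Ba fell, with 22.9 and 21.2 CPM in TraF and 23.4 and 21.2 CPM in Control testes at 12 h, against 36.6 and 30.7 CPM in TraF and 30.0 and 32.5 CPM in Control testes at 0 h. All 12 h libraries lay below all 0 h libraries (log2 fold change -0.55, SE 0.102, edgeR adjusted p = 0.0189), and the highest adjusted p without a library was 0.0774 without TraF 12 h replicate 2. Exons of Hsp67Ba overlap an antisense RNA gene, asRNA:CR43481, on the other strand. Hsp22 is listed at 0 reads in all 8 libraries and was not tested.

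Counts of the Hsp70 group were low in these testes. Hsp70Bb (FBgn0013278, arm 3R) had 10.0 and 11.3 CPM in TraF and 0.376 and 1.55 CPM in Control testes at 12 h, against 0.947 and 1.9 CPM in TraF and 0.349 and 0.67 CPM in Control testes at 0 h. TraF libraries at 12 h were high and the Control libraries overlapped between times. The call in the shared model (log2 fold change 2.14, SE 0.487, edgeR adjusted p = 0.0434) therefore rests on TraF testes, where the log2 fold change was 2.88 (edgeR adjusted p = 0.0249), against 0.91 (edgeR adjusted p = 0.765) in Control testes, and it reached an adjusted p of 0.171 without TraF 0 h replicate 2. The test of the difference between genotypes gave 1.98 (edgeR adjusted p = 1). Both libraries with a high level of Hsp70Bb, TraF at 12 h, were also those with a high level of tra, while in Control testes the log2 fold changes were 0.91 for Hsp70Bb and -0.65 for tra. UAS vectors commonly carry a basal promoter taken from an Hsp70 gene. Whether transgene reads were counted to Hsp70Bb was not tested. Hsp70Bc had 77 reads at 12 h and 47 at 0 h, a log2 fold change of 0.67 (SE 0.506, edgeR adjusted p = 0.595). The other copies, Hsp70Aa, Hsp70Ab, Hsp70Ba and Hsp70Bbb, had 5, 15, 43 and 33 reads over all 8 libraries and were not tested. These copies are nearly identical in sequence, and reads that match more than 1 copy may have been left out or split among them. The level of each copy, and of the group, is therefore uncertain.

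Hsp68, an Hsp70 relative, and Hsp83 were abundant and did not pass. Hsp68 stood at 306 and 349 CPM in TraF and 393 and 454 CPM in Control testes at 12 h, against 339 and 222 CPM in TraF and 369 and 259 CPM in Control testes at 0 h (log2 fold change 0.33, SE 0.164, edgeR adjusted p = 0.341). Hsp83 stood at 1894 and 2197 CPM in TraF and 1983 and 2538 CPM in Control testes at 12 h, against 2463 and 1939 CPM in TraF and 2273 and 1888 CPM in Control testes at 0 h (log2 fold change 0.01, SE 0.153, edgeR adjusted p = 0.995). The times overlapped in both genes, and the log2 fold change of Hsp83 turned below 0 in TraF testes alone (-0.11) and without each of 4 single libraries. Both genes share exonic sequence with genes on the other strand, CG6000 and CG14966. Other members that did not pass were DnaJ-1, an Hsp40 gene (-0.15), stv, a co-chaperone gene (-0.18), CG4456 (-0.15) and the heat-responsive noncoding RNA lncRNA:Hsromega (0.48). The name Hsc70-4 had no match among the identifiers, so that gene is not in the list of constitutive chaperones. None of the 26 constitutive chaperones and co-chaperones tested was called by edgeR or DESeq2, 1 had an unadjusted p under 0.05, and their median was 0.01. The lowest p among them belonged to Fkbp59 (151 CPM at 12 h against 119.9 CPM at 0 h, log2 fold change 0.33) and Hsc70-3 (288 CPM at 12 h against 241 CPM at 0 h, 0.27). Cyp40, which encodes cyclophilin 40, a partner of Hsp90, rose with 171 and 166 CPM in TraF and 161 and 184 CPM in Control testes at 12 h, against 104 and 95.2 CPM in TraF and 116 and 113 CPM in Control testes at 0 h (log2 fold change 0.67, SE 0.102, edgeR adjusted p = 0.00789). Its exons overlap Or67b on the other strand.

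**Figure D3:**
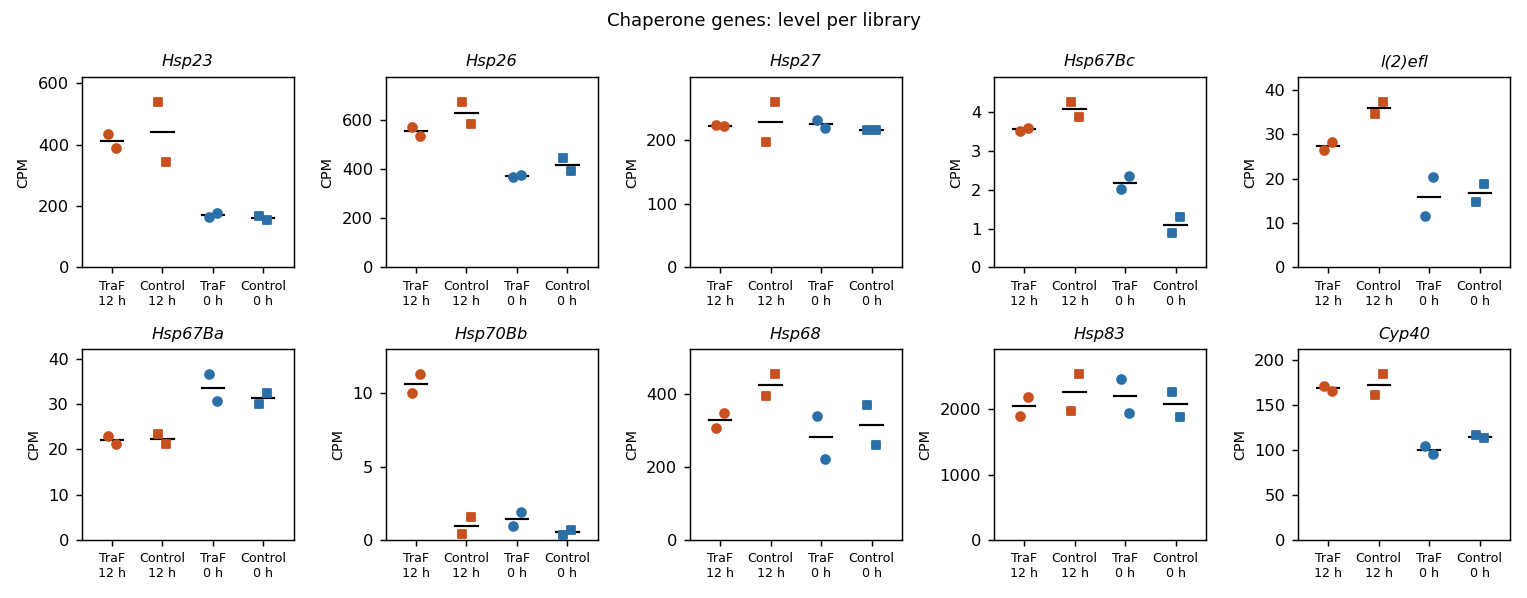
Level in CPM of 10 chaperone genes in each of the 8 libraries (circles TraF, squares Control, bars the mean of 2). Hsp23, Hsp26, Hsp67Bc, l(2)efl and Cyp40 lie higher at 12 h (orange) than at 0 h (blue) in both genotypes, Hsp67Ba lies lower, Hsp70Bb is high in TraF testes at 12 h, and Hsp27, Hsp68 and Hsp83 overlap.

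Detoxification genes changed in both directions. Of 111 tested members of this list of cytochromes P450 and glutathione S-transferases, 6 rose and 5 fell, against 1.52% and 1.77% of all genes tested, with a median of 0.07. DESeq2 called 20 of them, against 710 of all 11895 genes. Without Control 12 h replicate 1, 6 rose and 7 fell and the median was -0.09. Among the 6 was Cyp40, which is no P450 and entered the list by its symbol. Cyp6d2 rose with 10.9 to 16.7 CPM at 12 h and 5.33 to 8.21 CPM at 0 h (log2 fold change 0.93, SE 0.14, edgeR adjusted p = 0.00786), and it overlaps nsr on the other strand. GstE8 rose with 3.19 to 8.67 CPM at 12 h and 1.52 to 2.4 CPM at 0 h (log2 fold change 1.73, SE 0.29, edgeR adjusted p = 0.0129), Cyp4d14 changed by 1.49 (SE 0.264, edgeR adjusted p = 0.0159) and Cyp12d1-d by 1.88 (SE 0.431, edgeR adjusted p = 0.0438). Cyp6a14 was uneven between genotypes, with 11.7 and 12.5 CPM in TraF and 2.77 and 1.73 CPM in Control testes at 12 h, against 1.01 and 1.11 CPM in TraF and 1.55 and 0.775 CPM in Control testes at 0 h. Its shared log2 fold change was 2.27 (SE 0.471, edgeR adjusted p = 0.0283), with 3.50 in TraF and 0.97 in Control testes, and the genotype difference, 2.54 (edgeR adjusted p = 1), did not pass. On the other strand, exons of Cyp4d14 overlap ND-B14.5A and asRNA:CR45479, and those of Cyp6a14 overlap a transposon insertion. The falls were Cyp4d8 (log2 fold change -0.83, SE 0.157, edgeR adjusted p = 0.0212), Cyp4p1 (-0.72), Cyp4ac3 (-0.85), Cyp6a13 (-0.52) and GstD10 (-1.23). Cyp12d1-d ranged over 0.797 to 3.85 CPM at 12 h and 0.509 to 0.852 CPM at 0 h, and its Control libraries overlapped between times. Apart from Cyp6d2 and Cyp40, each of these calls was lost without at least 1 library. Of the 8 leave-outs, the call was kept in 5 for GstE8, 4 for Cyp4d14, and 3 for Cyp6a14 and Cyp4d8. It was kept in 2 for Cyp4ac3, Cyp6a13 and GstD10, and in 1 for Cyp12d1-d and Cyp4p1. The highest adjusted p by edgeR ran from 0.0558 without TraF 0 h replicate 2 (GstE8) to 0.152 without Control 0 h replicate 2 (GstD10). The accessory gland library held the highest level of Cyp12d1-d at 12 h, and the call of that gene was lost without it (edgeR adjusted p = 0.0765), as was that of GstD10 (edgeR adjusted p = 0.0564).

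The amylase genes and the maltase gene Mal-B1 rose, and Hex-A, Lip4 and shd fell. Of the 7 amylase and maltase genes tested, a family grouped after the values were seen, these 3 rose and none fell, with a median of 0.14. Among all genes tested, 1.52% rose and 1.77% fell. The maltase gene Mal-A2 went the other way without passing, with 0.249 and 0.117 CPM in TraF and 0.188 and 0.281 CPM in Control testes at 12 h, against 0.533 and 0.324 CPM in TraF and 0.542 and 0.423 CPM in Control testes at 0 h (log2 fold change -1.10, SE 0.366, edgeR adjusted p = 0.139). All its 12 h libraries lay below all 0 h libraries. The amylase gene Amy-p (FBgn0000079, arm 2R) stood at 13.2 and 11.4 CPM in TraF and 48.5 and 42.8 CPM in Control testes at 12 h, against 1.01 and 1.76 CPM in TraF and 7.67 and 13.3 CPM in Control testes at 0 h. Control testes were above TraF testes at each time, and within each genotype the 12 h libraries were several times above those at 0 h (log2 fold change 2.51, SE 0.248, edgeR adjusted p = 0.0016). Amy-d, its neighbouring copy, ranged over 5.81 to 32.2 CPM at 12 h and 0.296 to 8.07 CPM at 0 h (log2 fold change 2.52, SE 0.363, edgeR adjusted p = 0.00714). The copies are nearly identical, and reads that match both may have been left out or split between them. Mal-B1, a maltase gene, showed the opposite genotype order, with 19.1 and 17.2 CPM in TraF and 6.95 and 6.33 CPM in Control testes at 12 h, against 4.26 and 3.51 CPM in TraF and 1.67 and 2.11 CPM in Control testes at 0 h (log2 fold change 2.03, SE 0.153, edgeR adjusted p = 0.000238). All 3 calls held without each library. These amylases were the only called members of the gut list, in which 7 genes were tested. LManIII was called lower too without Control 12 h replicate 1 (edgeR adjusted p = 0.0448). The list's median was -1.10, the value of Mal-A2. Protease genes such as yip7 (0.117 CPM at 12 h against 3.59 CPM at 0 h) and alphaTry (0.366 CPM at 12 h against 1.83 CPM at 0 h) did not pass and were highest in Control 0 h replicate 1 (13.3 CPM of yip7). The median ran from -1.26 to 0.14 without single libraries. The summed level of the gut list was 21.6 to 77.7 CPM at 12 h and 8.51 to 42.6 CPM at 0 h, and the part of attached gut tissue in these values was not tested.

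Hexokinase gene Hex-A was the 1 called gene of 16 glycolysis genes tested, and it was lower at 12 h, with 53.5 and 46.6 CPM in TraF and 47 and 49.5 CPM in Control testes at 12 h, against 114 and 97.6 CPM in TraF and 57.4 and 65.2 CPM in Control testes at 0 h. At 0 h the TraF libraries were the higher ones, and at 12 h all 4 were close. The log2 fold change was -0.71 (SE 0.157, edgeR adjusted p = 0.038), and the adjusted p by edgeR was 0.15 without TraF 12 h replicate 1. The genotype difference gave -0.73 (edgeR adjusted p = 1). Gapdh2 was also called lower without Control 12 h replicate 1, at -0.51 (edgeR adjusted p = 0.0287). Lip4, a lipase gene, was the 1 called gene of 16 in the lipid and sugar list and fell with 11.7 to 16.5 CPM at 12 h and 20.3 to 30.2 CPM at 0 h (log2 fold change -0.76, SE 0.122, edgeR adjusted p = 0.00959). Its adjusted p was 0.0506 without TraF 12 h replicate 1. The single falls in these lists stand against 1.77% lower among all genes tested, as does that of shd. Among 19 ecdysone and juvenile hormone genes, shd alone was called. It encodes the enzyme that makes active 20-hydroxyecdysone, and it stood at 11 and 10.1 CPM in TraF and 13.4 and 12.5 CPM in Control testes at 12 h, against 16.9 and 17.8 CPM in TraF and 20.1 and 22.1 CPM in Control testes at 0 h. The log2 fold change was -0.71 (SE 0.0974, edgeR adjusted p = 0.00549), and the call held without each library. Ribosomal protein genes for the cytoplasm (87 tested), for mitochondria (70 tested) and the respiratory chain (82 tested) had 0 calls by edgeR and medians of 0.12, 0.13 and 0.09. At an unadjusted p under 0.05 stood 1, 13 and 1 of them, against 2129 of all 11895 genes. DESeq2 called 0, 1 and 1 of them, against 710 of all genes. The median of the cytoplasmic ones was -0.06 without Control 12 h replicate 1.

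Germline and somatic gene lists of the testis stayed close to the median of all genes. By edgeR no member was called among 16 hub and cyst cell genes (median -0.01), 10 early germline genes (-0.07), 15 spermatocyte and meiosis genes (-0.01), 26 sperm chromatin and tail genes (0.03), 18 cup and comet genes (-0.0046) and 6 Y-linked fertility genes (0.04). DESeq2 called none of these either. The names vas, nos, esg, kl-3 and kl-5 had no match among the identifiers and are not in these lists. Without Control 12 h replicate 1 edgeR called mtrm alone, at a log2 fold change of 0.82 (edgeR adjusted p = 0.0172). At an unadjusted p under 0.05 stood 2 hub and cyst cell genes, 1 early germline gene and 1 spermatocyte gene. Members of these lists with the lowest p included aub, a piRNA pathway gene (24.7 CPM at 12 h against 33.2 CPM at 0 h, log2 fold change -0.43), mtrm (7.77 CPM at 12 h against 5.27 CPM at 0 h, 0.61), and soti, a gene of elongating spermatids (643 CPM at 12 h against 587 CPM at 0 h, 0.13). The tMAC and tTAF complexes, which switch on the spermatocyte programme, had 2 members called higher of 17 tested, against 1.52% of all genes, and 0 called lower. DESeq2 called 4 of them, against 710 of all 11895 genes. The TAF gene mia stood at 35.1 and 37.8 CPM in TraF and 34.1 and 34.8 CPM in Control testes at 12 h, against 20.9 and 20.8 CPM in TraF and 25 and 23.3 CPM in Control testes at 0 h (log2 fold change 0.66, SE 0.1, edgeR adjusted p = 0.00793), and no 12 h library reached down to a 0 h library. wuc, a tMAC-associated gene, ranged over 32.5 to 37.7 CPM at 12 h and 22.7 to 26.9 CPM at 0 h (log2 fold change 0.48, SE 0.1, edgeR adjusted p = 0.0301), and its call was lost without each of the libraries other than Control 12 h replicates 1 and 2 (at most 0.113). The next tMAC gene by p, topi, had 94.5 CPM at 12 h against 129 CPM at 0 h (log2 fold change -0.46, edgeR adjusted p = 0.0766). Summed, the list stood at 982 to 1110 CPM at 12 h and at 878 to 1200 CPM at 0 h.

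**Figure D4:**
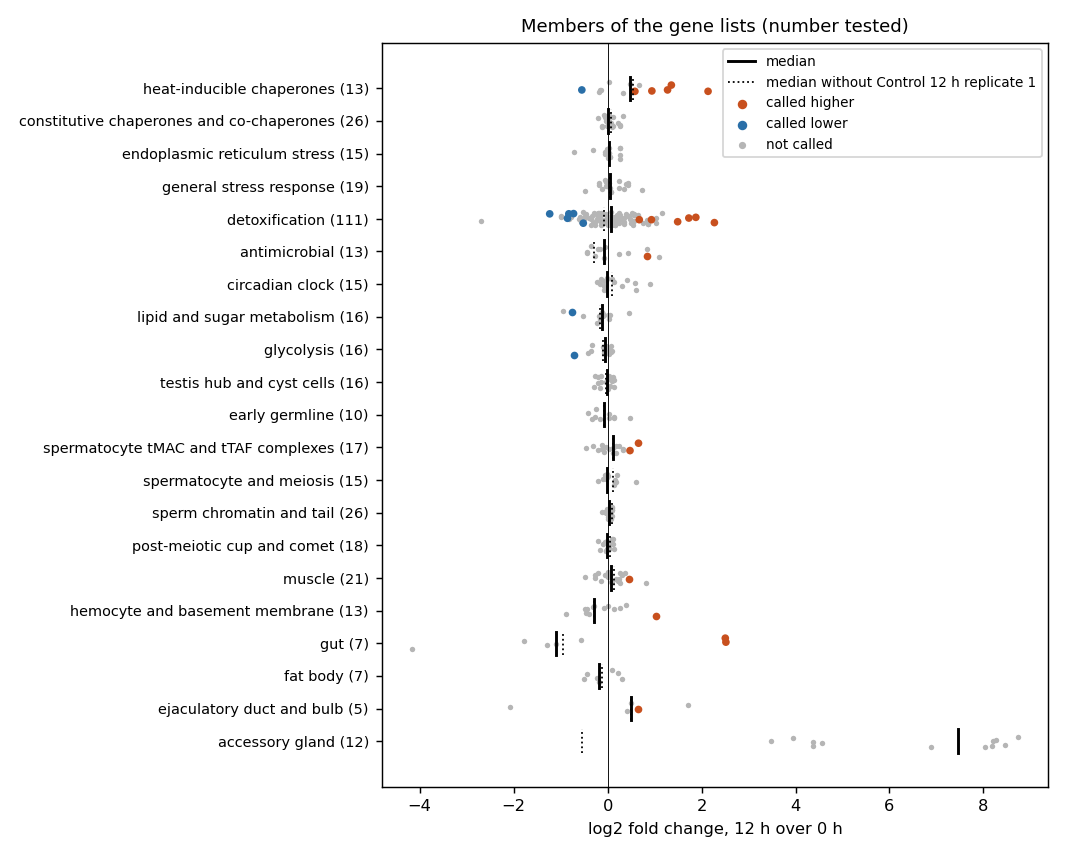
Each point is a tested member of a gene list, placed by its log2 fold change of 12 h over 0 h; orange and blue points were called higher and lower, solid bars are medians and dotted bars are medians without Control 12 h replicate 1. Heat-inducible chaperones have a median of 0.48, spermatid lists lie near 0, and the accessory gland median is -0.54 when that library is left out and 7.46 with it.

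Markers of other cell types were examined beside these results. All 12 accessory gland genes tested lay above 0, with a median of 7.46. By edgeR and DESeq2 0 were called, and 10 had an unadjusted p under 0.05. Without Control 12 h replicate 1 the median was -0.54 and 1, Acp36DE, was called. Acp36DE stood at 6.89 and 7.67 CPM in TraF and 1305 and 8.81 CPM in Control testes at 12 h, against 5.21 and 3.05 CPM in TraF and 3.99 and 3.31 CPM in Control testes at 0 h. Without that library its log2 fold change was 1.02 (edgeR adjusted p = 0.0142). The called gene with the largest fold, the serpin gene Spn28B, named after its values were seen, also rests on it. Spn28B had 0.249 and 0.117 CPM in TraF and 16.8 and 1.08 CPM in Control testes at 12 h, against 0.178 and 0 CPM in TraF and 0.232 and 0.0705 CPM in Control testes at 0 h, and its adjusted p by edgeR was 0.0486. Without that library it was 0.072.

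Ejaculatory bulb gene EbpIII rose with 184 and 157 CPM in TraF and 215 and 172 CPM in Control testes at 12 h, against 101 and 112 CPM in TraF and 102 and 147 CPM in Control testes at 0 h (log2 fold change 0.66, SE 0.139, edgeR adjusted p = 0.0307), and its list summed to 172 to 236 CPM at 12 h and to 111 to 156 CPM at 0 h. The call of EbpIII held for 3 of the 8 libraries left out in turn. Its adjusted p by edgeR was 0.121 without TraF 12 h replicate 1. The other 4 tested members did not pass, and the part of attached ducts in the rise of EbpIII was not tested. Hml, which encodes the hemocyte clotting protein hemolectin, stood at 33.7 and 32.1 CPM in TraF and 26.7 and 28.5 CPM in Control testes at 12 h, against 12.6 and 19.2 CPM in TraF and 12.9 and 14.1 CPM in Control testes at 0 h. All 12 h libraries lay above all 0 h libraries (log2 fold change 1.04, SE 0.13, edgeR adjusted p = 0.0036), and the call held without each library. The median of the 13 hemocyte and basement membrane genes tested was -0.28, and the summed level was 267 to 321 CPM at 12 h and 256 to 404 CPM at 0 h. crq (35.5 CPM at 12 h against 49.9 CPM at 0 h, log2 fold change -0.49), eater (-0.90) and Col4a1 (-0.45) did not pass, and without Control 12 h replicate 1 crq was called lower (edgeR adjusted p = 0.0225). Of 21 muscle genes, Mlp60A alone was called (24.8 to 31.6 CPM at 12 h and 19.9 to 21.7 CPM at 0 h, log2 fold change 0.46, SE 0.106, edgeR adjusted p = 0.0473), and the call was lost without 7 of the 8 libraries, Control 12 h replicate 2 being the exception. PGRP-SA, a peptidoglycan sensor of the Toll pathway, was the 1 call among 13 antimicrobial genes (8.25 to 18 CPM at 12 h and 5.39 to 7.87 CPM at 0 h, log2 fold change 0.84, SE 0.178, edgeR adjusted p = 0.031), and its adjusted p was 0.113 without TraF 0 h replicate 2. The single rises in the ejaculatory, hemocyte, muscle and antimicrobial lists stand against 1.52% higher among all genes tested. No fat body gene was called (7 tested, median -0.18), 1 had an unadjusted p under 0.05, and DESeq2 called 1. Among 6 neuron genes the median was -0.15, with 0 calls by edgeR or DESeq2 and 0 genes at an unadjusted p under 0.05.

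Clock and stress lists held no call by edgeR with all libraries, and without Control 12 h replicate 1 they held Clk, at a log2 fold change of 0.82 (edgeR adjusted p = 0.041), and Atf6, at -0.92 (edgeR adjusted p = 0.00553). Among 15 circadian genes the median was -0.01, 3 genes had an unadjusted p under 0.05 and DESeq2 called 0. The clock genes vri, Clk and tim had log2 fold changes of 0.91, 0.61 and 0.58, and none of them passed. vri stood at 6.43 and 11.7 CPM in TraF and 28.7 and 31.4 CPM in Control testes at 12 h, against 12 and 7.44 CPM in TraF and 8.91 and 7.83 CPM in Control testes at 0 h. Control libraries at 12 h were high and the TraF libraries overlapped between times (log2 fold change -0.10 in TraF and 1.85 in Control testes), and the genotype difference gave -1.94 (edgeR adjusted p = 1). Clock times of dissection are not given in the labels. Endoplasmic reticulum stress (15 tested), general stress (19 tested) and oxidative stress and metal (16 tested) genes had medians of 0.04, 0.06 and 0.02. Of these, 2, 4 and 0 stood at an unadjusted p under 0.05, and DESeq2 called 1, 1 and 0. Their members with the lowest p were Atf6 (6.5 CPM at 12 h against 10.7 CPM at 0 h, log2 fold change -0.71), kay, the fly Fos gene (33.5 CPM at 12 h against 25 CPM at 0 h, 0.43), and Sod1 (156 CPM at 12 h against 132 CPM at 0 h, 0.25). No call by edgeR was found either among 17 JAK/STAT and EGFR signalling genes (median 0.01), 31 proteasome genes (-0.00075), 14 testis proteasome paralogs (-0.02), 13 replication genes (-0.02) and 11 sex determination genes (-0.02). At an unadjusted p under 0.05 stood 1, 2, 0, 3 and 2 of them, and DESeq2 called 0, 1, 0, 1 and 0. The replication gene RnrL was called lower without Control 12 h replicate 1, at -0.71 (edgeR adjusted p = 0.0461).

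ple and Ddc, which encode consecutive enzymes of dopamine synthesis and were chosen after their values were seen, were called in opposite directions. ple, which encodes tyrosine hydroxylase, stood at 46.8 and 57.2 CPM in TraF and 44.3 and 43.5 CPM in Control testes at 12 h, against 32 and 21 CPM in TraF and 10.1 and 15.6 CPM in Control testes at 0 h (log2 fold change 1.37, SE 0.21, edgeR adjusted p = 0.00793). Ddc, the next enzyme of the pathway, stood at 19 and 22.2 CPM in TraF and 17.8 and 17.8 CPM in Control testes at 12 h, against 26.5 and 29.4 CPM in TraF and 27 and 27.9 CPM in Control testes at 0 h (log2 fold change -0.53, SE 0.1, edgeR adjusted p = 0.0209). The adjusted p of Ddc was 0.08 without TraF 0 h replicate 2 by edgeR. The times did not overlap in either gene. Exons of Ddc overlap CG10561 on the other strand.

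Of all genes tested, tra alone passed the test of a difference between genotypes by edgeR. The change in TraF minus the change in Control testes was called for 1 of 11895 genes (0.00841%), at 4.08 (edgeR adjusted p = 0.000666), and the call held without each library. An unadjusted p under 0.05 was reached by 207 genes, and DESeq2 called 4. Without Control 12 h replicate 2 the accessory gland library alone stood for its group, and 74 genes were lower in TraF than in Control testes in their change. The shared test gave tra a log2 fold change of 1.49 (SE 0.761, edgeR adjusted p = 0.348), with 3.42 in TraF and -0.65 in Control testes. Exons of tra overlap l(3)73Ah on the other strand. Tested within each genotype in a fit to all 12 testis libraries, 82 of 12083 genes were called in TraF and 37 in Control testes. Of these, 77 and 37 were among the 391. The same libraries made both sets of calls, so this overlap is a description. CG6409 changed by 3.08 in TraF and 3.11 in Control testes, and CG5966 by -2.21 and -1.68.

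Ovaries of the same series, from tra2ts and w1118 females after 12 and 0 h at 29 °C, gave the comparison with another gonad. Late egg chambers had been removed from them. Tissue, stock and any difference in temperature cannot be told apart in it. The labels give 30 °C for testes in the extraction notes and 29 °C for all flies in the treatment notes. The testis change minus the ovary change was called for 751 of 12259 genes (6.13%), with 393 higher (3.21%) and 358 lower (2.92%). Among the 111 genes that rose in testes and were also tested in ovaries alone, the testis change lay above the ovary change in 50 and below it in 2. Among the 140 such genes that fell it lay below in 54 and above in 4. Of the 70 rises and 70 falls too low for the test in ovaries alone, which entered the joint model through testes, it lay above in 6 and below in 3. The testis libraries that made the calls also enter this difference, so these counts are a description.

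In ovaries alone, 640 genes rose (7.41% of 8636 tested) and 691 fell (8%). Of the 111 testis rises tested there, 17 rose and 10 fell, and of the 140 testis falls, 30 fell and 5 rose. CG6409 rose in ovaries too, by 1.55 (SE 0.348, edgeR adjusted p = 0.0193) on the log2 scale, and rose more in testes by the tested difference, 1.59 (SE 0.326, edgeR adjusted p = 0.0111). CG16995 had a log2 fold change of -1.45 in ovaries (SE 0.662, edgeR adjusted p = 0.16), which did not pass, and a difference of 4.60 (SE 0.667, edgeR adjusted p = 0.00166). CG5966 and Gs1 had -0.20 and -0.15 in ovaries, neither of which passed, with differences of -1.77 (SE 0.252, edgeR adjusted p = 0.00143) and -1.31 (SE 0.169, edgeR adjusted p = 0.000556). Hml had -1.13 (SE 0.441, edgeR adjusted p = 0.106) in ovaries and a difference of 2.11 (SE 0.441, edgeR adjusted p = 0.0119). mia rose more in ovaries, by 1.86 (SE 0.243, edgeR adjusted p = 0.00346), with a difference of -1.22 (SE 0.216, edgeR adjusted p = 0.0045). Among chaperones, Hsp67Ba had 0.77 in ovaries (SE 0.242, edgeR adjusted p = 0.0571), which did not pass, and a difference of -1.34 (SE 0.253, edgeR adjusted p = 0.00692). Hsp23 rose in ovaries by 2.13 (SE 0.292, edgeR adjusted p = 0.00386), and its difference of -0.79 (SE 0.343, edgeR adjusted p = 0.193) did not pass. Hsp68 had 2.01 in ovaries (SE 0.9, edgeR adjusted p = 0.152), which did not pass, and its difference of -1.70 (SE 0.933, edgeR adjusted p = 0.317) did not pass either.

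Levels after 24 h of warmth are given for the leading genes beside those at 12 h, as a description, since the comparison of each time shares the 0 h libraries. The 24 h levels were scaled by TMM over all 12 testis libraries, and those at 12 h over the 8, so the scales are not the same. CG6409 stood at 774 and 636 CPM in TraF and 547 and 612 CPM in Control testes at 24 h. Hsp23 stood at 329 to 423 CPM and Hsp26 at 593 to 678 CPM over the 4 libraries at 24 h. ftz stood at 3.9 to 5.32 CPM, above its range of 1.64 to 2.07 CPM at 12 h, and CG3690 at 16.5 to 36.2 CPM, against 7.6 to 11.5 CPM. Cyp6a14 stood at 1.53 to 3.37 CPM, below its TraF levels at 12 h. CG5966 and CG14563 stood at 6.77 to 11.8 CPM and 0 to 0.113 CPM, and mia at 43.3 to 45.2 CPM.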

How the data were processed

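RNA was sequenced from dissected testes and ovaries as single-end reads of 76 bases, per the labels. TopHat 1.4.1, HTSeq and build dm3 are named in the submitters' processing notes. Each deposited file gives the authors' counts of reads for 15406 genes, not normalized. The annotation release and strand setting are not given in the sources used here. The 5 summary lines of each file were left out, among them those for reads outside genes (2.00% to 2.46% of reads in these libraries) and ambiguous reads (3.71% to 4.30%). Symbols were found for 14732 identifiers. There were 32 list names without a match, Hsc70-4, vas, nos, esg, kl-3 and kl-5 among them, and these were not analysed.

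Counts of the 8 testis libraries were filtered with filterByExpr, scaled by TMM and fitted in edgeR 4.0.16 (R 4.3.3) with genotype and time, leaving 5 residual degrees of freedom. The two-sided quasi-likelihood test was adjusted over 11895 genes by the Benjamini-Hochberg method, with a threshold of 0.05. The genotype difference used an interaction (4 residual degrees of freedom), and the tissue difference a fit to 16 libraries. Alternatives were RLE scaling, no filter, DESeq2 1.42.0, a robust prior, other sets of libraries, a replicate block and leaving out each library. No set test was run. Chromosome arms and overlaps came from a later annotation, so no coordinates are given. Reads carry no molecular identifiers, so counting intervals cover counting error only.

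Named genes were called genes with at least 1 CPM at either time and no overlap within either genotype (the 10 largest rises and falls, then 6 each with a symbol), up to 4 of each list, the Hsp genes, tra and Acp36DE. Members and the 34 lists were chosen with earlier results of these data known. ple, Ddc, vri, Acp26Aa, Spn28B and further called list members were chosen after their values were seen.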

Additional observations from a re-analysis of the deposited data

Results flagged for a closer look

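Libraries that stood far from the other 3 of their time, by the gap to the nearest library, were few among 134 gene values and 68 list sums checked, and chance flags about 1 in 20 such groups. At 12 h, Control 12 h replicate 1 held 1300 CPM of Acp36DE (others 6.89 to 8.81), 261 CPM of Acp26Aa (others 0.0937 to 0.208) and 6140 CPM over the accessory gland list (others 12.3 to 15.4). Control 12 h replicate 2 was high in Cpr62Bc (2.25 CPM, others 0.706 to 0.845) and mey (2.11 CPM, others 0.782 to 0.892), and TraF 12 h replicate 2 was low in Ugt37C1 (1.25 CPM, others 1.59 to 1.66). At 0 h, TraF 0 h replicate 1 was high in CG31259 (7.93 CPM, others 6.97 to 6.98), in the lipid and sugar list (765 CPM, others 629 to 647) and in the ecdysone and juvenile hormone list (232 CPM, others 202 to 207). TraF 0 h replicate 2 was high in the general stress list (399 CPM, others 383 to 385).

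Beyond tra, whose change was 4.08 larger in TraF than in Control testes on the log2 scale, the flags are differences between the testis and the ovary change, tested in 1 model and passing by edgeR. The testis change was the higher one for CG6409 (1.59), CG16995 (4.60), Hml (2.11), Cyp6d2 (1.58), GstE8 (1.68), Cyp6a14 (3.95), EbpIII (1.30), PGRP-SA (2.38) and Mlp60A (0.96). CG3690 (4.45) was too low to be tested in ovaries alone, with 4 reads at 12 h and 18 reads at 0 h over the 4 ovary libraries of each time, so its difference rests on few ovary reads. It was the lower one for CG12116 (-1.04), CG5966 (-1.77), Gs1 (-1.31), mia (-1.22), Cpr66D (-2.56), Hsp67Ba (-1.34) and GstD10 (-2.29). The calls of CG12116, CG3690, EbpIII and Mlp60A were lost without at least 1 testis library, with adjusted p of up to 0.117, 0.0714, 0.0568 and 0.0512 by edgeR; the other 13 held without each.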

How the results depend on the processing

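All 391 called genes kept the direction of their change under every alternative run. The alternatives reuse the libraries that made the calls, so a kept direction is a description and no independent check. DESeq2 called 314 genes higher and 396 lower, and within TraF or Control testes alone 40 and 42 or 25 and 12 genes were called. Leaving out single libraries gave 55 to 329 genes higher and 48 to 335 lower. RLE scaling (385 of the 391 also called), no filter (288), a robust prior (385) and a fit to all 12 testis libraries (358) stayed within 1.5 times of the main counts. For the genotype difference, DESeq2 called 3 genes higher and 1 lower, and leave-outs gave 1 to 2 higher and 0 to 74 lower. For the tissue difference, DESeq2 called 641 higher and 566 lower, and leave-outs gave 225 to 499 and 179 to 523.

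Whether the replicate numbers mark a shared batch is not given in the labels. Deviations of equal numbers correlated by -0.00118 to 0.324 over the 6 pairs of groups, over 0.1 in 4 of them. The numbers were not taken as pairs in the main fit, and these values do not settle whether they should be. The share of reads outside genes was 2.41% to 2.46% in replicate 1 and 2.00% to 2.16% in replicate 2 of the 4 groups. That of ambiguous reads was higher in replicate 2 of each group. In TraF testes it was 3.71% and 4.30% at 0 h and 4.23% and 4.24% at 12 h, replicate 1 first. With a replicate block, 479 genes were called (222 higher, 257 lower) and 1 gene was lower in the genotype difference. In the tissue difference 734 were then higher and 730 lower, against 393 and 358 without the block.

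Of the 59 named genes that were called, 26 held without each library. Of all 59, 55 and 58 were called without Control 12 h replicates 1 and 2, and 28 to 38 without any 1 of the other libraries. Directions turned for genes that were not called: Acp26Aa (-0.38 in TraF alone, and -0.71 to 9.08 over the leave-outs), vri (-0.10 in TraF alone), tra (-0.65 in Control alone), Hsp27 (-0.027 in TraF alone, and -0.051 to 0.10 over the leave-outs) and Hsp83 (-0.11 in TraF alone, and -0.080 to 0.10 over the leave-outs). The cause was not tested. With 2 libraries per group, small changes and genes of few reads could not be resolved, and a library left alone in its group was assumed to vary like the others.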

Other observations

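Gene families, grouped by symbol after the calls were seen and so given without a test, showed mixed directions. Their counts stand against 1.52% higher and 1.77% lower among all genes tested. Of 31 tested cuticle protein genes with the Rebers-Riddiford motif, 7 were called higher (Cpr92A, Cpr100A, Cpr78Cc, Cpr62Bc, Cpr67Fb, Cpr72Ec and Cpr60D) and 2 lower (Cpr66D and Cpr76Bb), while the family's median log2 fold change was -0.10. Of 11 alpha-esterase genes 3 were lower (alpha-Est10, alpha-Est8 and alpha-Est6), and of 95 chemosensory receptor and odorant binding protein genes, Or94a and Obp56a were higher and Ir60e was lower. Osi20 was higher and Osi15 lower among 13 Osiris genes, and Ugt37C1 higher and Ugt302C1 lower among 23 UDP-glycosyltransferase genes. Of 252 long noncoding RNA genes tested, 7 were higher, with lncRNA:roX2 among them, and 6 were lower, close to the shares among all genes. lncRNA:roX2, an RNA of the dosage compensation complex, had 4.36 and 2.5 CPM in TraF and 3.52 and 2.02 CPM in Control testes at 12 h, against 1.18 and 1.16 CPM in TraF and 0.968 and 1.66 CPM in Control testes at 0 h (log2 fold change 1.30, SE 0.289, edgeR adjusted p = 0.0389).

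Called genes lay on all large chromosome arms, though not in proportion to the genes tested there, and no test between arms was run. Of the 181 genes that were higher, 55 lie on arm 2R, 43 on 3L, 35 on 3R, 32 on 2L and 14 on X, and of the 210 that were lower, 65 lie on 3R, 46 on 2L, 39 on 3L, 32 on 2R and 22 on X. The genes tested numbered 2309 on 2R, 2234 on 3L, 2755 on 3R, 2163 on 2L and 1828 on X.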
